A study of Mus musculus with 14 samples.

Results

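The genes described here build the contacts between epithelial cells: 18 genes of the desmosome and of its attachment to keratin filaments, 7 of the adherens junction, 8 of the tight junction and 3 of the gap junction. They were picked by symbol for their known place in a junction, not by a cut on measured values, although earlier results of these data were known. All 36 were found among the 56691 genes counted in the series and passed the filter on low counts. RNA was taken from whole paws of newborn mice on postnatal day 3 (P3) or on the day of birth (P0), so that skin, bone, muscle, vessels and nerve were extracted together. The groups were P3 Krt9-/- mice, called Krt9 null here (n = 3), P3 WT mice (n = 5), P0 Krt9 null mice (n = 2) and P0 WT mice (n = 4). The labels give each pup's sex and litter number, and give neither the strain nor the design of the Krt9 allele. Krt9 encodes the keratin that marks the thick suprabasal skin of palms and soles.

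Desmosomes are spot-like rivets in which the cadherins Dsg and Dsc reach across the gap between cells, and the armadillo proteins Jup and Pkp and the plakin Dsp tie them to keratin filaments inside. Adherens junctions use the classical cadherins Cdh1 and Cdh3, which catenins connect to actin. Tight junctions seal the space between granular-layer cells with claudins and occludin anchored by ZO proteins, and gap junctions are connexin channels that pass small molecules from cell to cell. In stratified epidermis the members are layered, with Dsg3, Dsc3 and Cdh3 richest in the lower layers and Dsg1, Dsc1, Cdsn, Evpl and Ppl richest in the upper ones.

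Library totals ran from 28947715 to 41004173 counts. Krt9 was at 25.2, 7.74 and 11.5 CPM (read counts scaled to the size of the library, here with TMM factors) in P3 Krt9 null paws, against 32.9 to 83.0 CPM in P3 WT paws, while the P0 values overlapped, at 6.08 and 5.32 CPM in Krt9 null and 2.09 to 7.61 CPM in WT paws. Krt9 null is therefore the label's name for the genotype, since Krt9 was counted in every library so labelled, and the labels do not say which part of Krt9 the allele alters. Krt19, a simple epithelial keratin, separated the genotypes on both days, at 48.9 to 92.2 CPM in P3 Krt9 null, 0.865 to 1.95 CPM in P3 WT, 99.6 to 209 CPM in P0 Krt9 null and 1.13 to 1.61 CPM in P0 WT paws. The deposited columns follow the alphabet and then start again, so the libraries form a first run of 8 columns, block A, and a second run of 6, block B. What the runs stand for is not stated, and they are treated here only as a possible technical grouping. Block B held 2 of 3 P3 Krt9 null, 2 of 5 P3 WT, 1 of 2 P0 Krt9 null and 1 of 4 P0 WT libraries, and the block is given beside the values since many junction genes differed with it. The one P0 WT library of block B, replicate 4, carries a female label. Its Xist level was 0.181 CPM and its Ddx3y level 0.155 CPM, a combination seen in no other library, and counts that rest on it are given with and without it where a fit without it exists. Within block B no WT day difference and no P0 genotype difference can be had without it. For the block difference on P0, the fit without it leaves 1 block B library and is given by sizes.

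Per kilobase of exon, the junction genes spanned a wide range. Perp, a membrane protein of the desmosome, led in each group, with a mean of 729 CPM per kb over the 14 libraries. The plakophilin Pkp1 at 156, the catenin Ctnnb1 at 150.1, desmoplakin Dsp at 127 and the corneodesmosome protein Cdsn at 103 CPM per kb came next over all libraries, but their order changed between groups: Ctnnb1 was above Pkp1 in P3 WT (153 against 123) and P0 Krt9 null paws (144 against 114), and Dsp was above Ctnnb1 in P3 Krt9 null paws (162 against 144). At the other end stood Cldn8 at 1.29, Dsc2 at 1.29 and Pkp2 at 0.564 CPM per kb, genes known mainly from simple epithelia. Among the desmogleins, Dsg1a, at 74.6 CPM per kb over all libraries, led in each group, and the order below it changed. Dsg1b was above Dsg3 in P3 Krt9 null paws (20.7 against 10.05 CPM per kb) and below it in P3 WT (8.00 against 8.16), P0 Krt9 null (6.21 against 11.1) and P0 WT paws (10.3 against 14.6). Dsg4 was above Dsg2 on P3 (4.67 against 2.85 in Krt9 null, 4.33 against 2.62 in WT) and below it on P0 (1.04 against 2.87 in Krt9 null, 0.609 against 3.47 in WT). Among the connexins of the set, Gja1 (connexin 43) was at 52.7, Gjb5 (connexin 31.1) at 25.9 and Gjb6 (connexin 30) at 14.9 CPM per kb. The claudin order within the set was Cldn4 at 33.2, Cldn1 at 30.3, Cldn3 at 1.88 and Cldn8 at 1.29 CPM per kb. The SDs of Cldn4 and Cldn1 overlapped in each of the 4 groups. Connexins and claudins outside the set were not ranked here. Dsg1a and Dsg1b are near-identical copies, so how their reads were divided is uncertain.

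**Figure D1:**
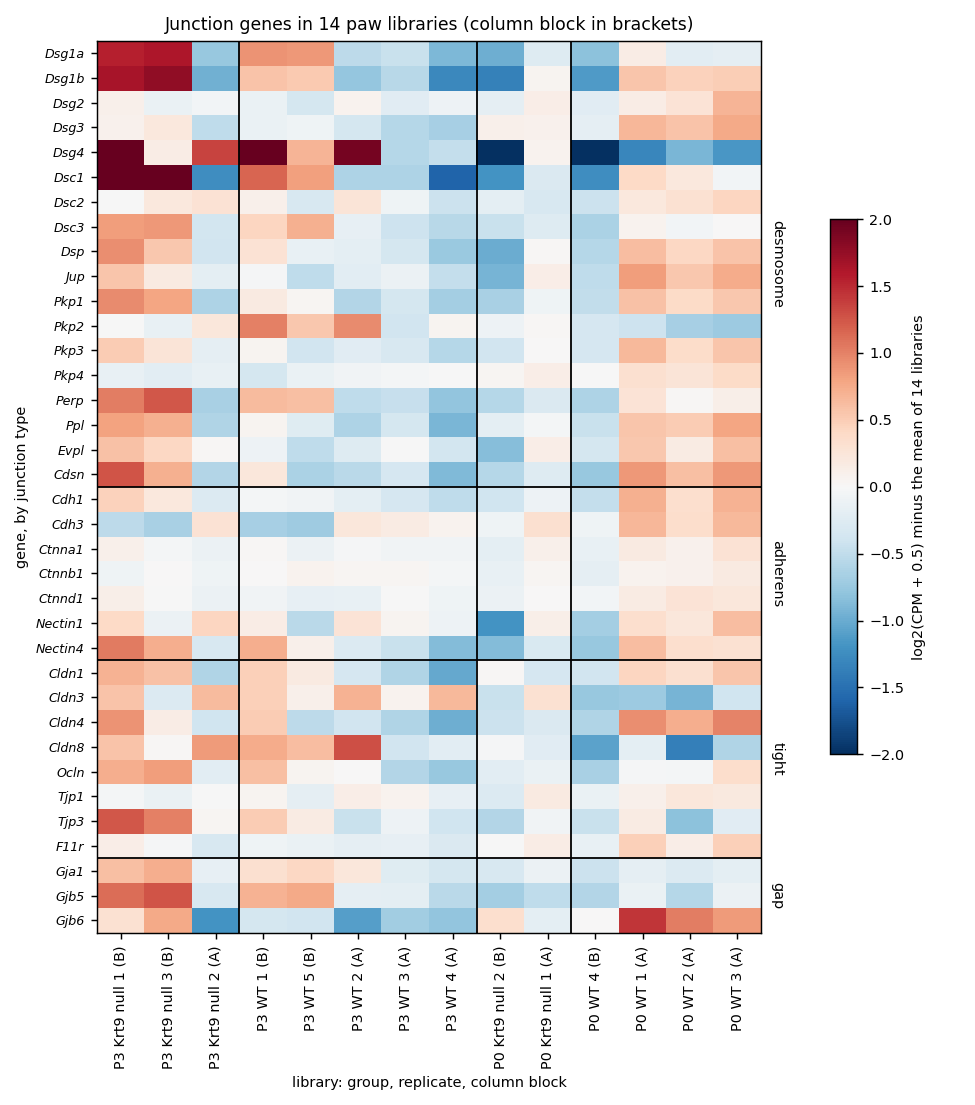
Level of each of 36 junction genes (rows, by junction type) in each of 14 libraries (columns, by group, with replicate and column block A or B), as log2(CPM + 0.5) minus the gene's mean over the libraries, from blue (lower) to red (higher), with the scale ending at 2 either way. Among P3 libraries, most desmosomal rows are redder in block B than in block A, and among P0 WT libraries replicate 4, of block B, is bluer than the 3 of block A.

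The first comparison asked how junction genes differed between P3 and P0 in WT paws. Of the 36 genes, 14 passed the test, 4 higher and 10 lower on P3, where 16.6% of the 21619 genes tested passed (8.49% higher, 8.07% lower). The median log2 fold change of the 36 was -0.29, against -0.01 over all genes tested. By type, 8 of 18 desmosomal, 1 of 7 adherens, 4 of 8 tight and 1 of 3 gap junction genes passed, with medians of -0.39, -0.26, -0.09 and 0.35. The tests were edgeR quasi-likelihood tests adjusted over all genes tested. In bulk tissue, fewer epithelial cells and less RNA per cell cannot be told apart. The summed level of 16 epithelial genes that are not junction genes was 5234 to 6689 CPM in P3 WT paws and 5192 to 10042 CPM in P0 WT paws, and with their mean as a covariate 14 junction genes passed, 7 higher and 7 lower, against 13.2% of all genes (7.1% higher, 6.05% lower). No marker in that list was at 0 in any group. Krt5 and Krt14 had the most counts of the 16 in each library and so weigh most in the sum. Of the 16, 1 was called higher and 3 lower on P3, with a median log2 fold change of -0.20.

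Of the 18 desmosomal genes, 6 fell and 2 rose. The cadherin Dsg3 and the plaque genes Jup and Pkp3 were among those that fell, while Dsp, Pkp1, Dsg2, Dsc1 and Dsc3 did not pass. Dsg3, the basal desmoglein, was at 65.9 and 68.2 CPM in block B and 56.4, 48.7 and 45.6 CPM in block A among P3 WT paws, against 63.5 CPM in block B and 114, 107 and 123 CPM in block A among P0 WT paws. The P3 levels in block A were all below the P0 ones in block A, while in block B they lay slightly above the single P0 library. The fitted log2 fold change was -0.84 ± 0.19 (SE, adjusted p = 0.00907). Jup, plakoglobin, which joins the cadherins to Dsp, was at 498 and 354 CPM in block B and 435, 463 and 364 CPM in block A on P3, against 356 CPM in block B and 902, 734 and 841 CPM in block A on P0 (log2 fold change -0.77 ± 0.18, adjusted p = 0.0108). Pkp3, a plakophilin of all epidermal layers, was at 220.4 and 162 CPM in block B and 180.4, 169.9 and 141 CPM in block A on P3, against 167 CPM in block B and 330.0, 272 and 310.4 CPM in block A on P0 (-0.65 ± 0.14, adjusted p = 0.00878). For both plaque genes, the P0 libraries of block A stood apart above every other WT library.

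Evpl and Cdsn, which serve the cornified envelope and the corneodesmosomes of the dead outer layers, also fell. Evpl was at 173 and 131 CPM in block B and 155, 184 and 144 CPM in block A on P3, against 146 CPM in block B and 270.2, 207 and 281 CPM in block A on P0 (-0.55 ± 0.14, adjusted p = 0.0179). Cdsn was at 286 and 158 CPM in block B and 167, 194 and 133 CPM in block A on P3, against 143 CPM in block B and 446, 369.9 and 447 CPM in block A on P0 (-0.95 ± 0.29, adjusted p = 0.0442). In both genes P0 replicate 4 lay within the P3 range. Pkp4, an armadillo protein also found outside desmosomes, was at 68.4 and 79.9 CPM in block B and 83.0, 85.6 and 86.6 CPM in block A on P3, against 87.0 CPM in block B and 109.5, 105 and 114 CPM in block A on P0, with no overlap (-0.37 ± 0.10, adjusted p = 0.0272). Genes without overlap made up 7.73% of all genes tested on the lower side and 8.96% on the higher side.

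The 2 desmosomal genes that rose were scarce ones. Dsg4, a desmoglein of the hair follicle and upper epidermis, was at 33.8 and 9.82 CPM in block B and 23.8, 3.84 and 4.15 CPM in block A on P3, against 1.03 CPM in block B and 2.12, 2.93 and 2.39 CPM in block A on P0. The groups did not overlap, although the P3 values themselves spread widely (log2 fold change 2.50 ± 0.68, adjusted p = 0.0305). Pkp2, a plakophilin of simple epithelia and heart, was at 6.13 and 4.26 CPM in block B and 5.82, 2.03 and 2.92 CPM in block A on P3, against 2.10 CPM in block B and 1.96, 1.58 and 1.501 CPM in block A on P0 (1.22 ± 0.31, adjusted p = 0.0165). Dsg1a, the more abundant of the Dsg1 pair, was at 649 and 634 CPM in block B and 243, 257 and 186 CPM in block A on P3, against 197 CPM in block B and 388, 301 and 307 CPM in block A on P0. Dsc3, the basal desmocollin, was at 429.9 and 521 CPM in block B and 286, 239 and 218 CPM in block A on P3, against 204 CPM in block B and 336, 306 and 319 CPM in block A on P0. For both genes the P3 values lay above P0 in block B and below it in block A. The other 10 desmosomal genes, these included, did not pass, with log2 fold changes between -0.82 for Ppl (periplakin) and 0.40 for Dsg1a.

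Of the adherens junction genes, Cdh1 (E-cadherin) fell. It was at 197 and 192 CPM in block B and 178, 161 and 142 CPM in block A on P3, against 146 CPM in block B and 332, 255 and 329 CPM in block A on P0 (log2 fold change -0.61 ± 0.18, adjusted p = 0.0306). The P3 values of Cdh1 lay above the P0 one in block B and below those of P0 in block A. All 7 adherens junction genes had a negative log2 fold change in the fit to all libraries. Ctnnb1 (β-catenin) was at 785 and 820.0 CPM in block B and 796, 801 and 759 CPM in block A on P3, against 685 CPM in block B and 819, 822 and 877 CPM in block A on P0. Ctnna1 (α-catenin) was at 287 and 258 CPM in block B and 276, 267 and 269 CPM in block A on P3, against 255 CPM in block B and 320.5, 301 and 345 CPM in block A on P0. Neither catenin passed, at -0.02 ± 0.10 and -0.18 ± 0.10, and in both P0 replicate 4 was the lowest WT library.

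Tight junction genes split, and those that rose, Cldn3 and Cldn8, were scarce. Their raw counts over all libraries ran from 24 to 159 and from 19 to 297. Cldn4, a claudin of the upper layers, was at 77.3 and 37.6 CPM in block B and 41.4, 35.7 and 27.4 CPM in block A on P3, against 35.7 CPM in block B and 104, 89.7 and 108 CPM in block A on P0 (log2 fold change -1.0001 ± 0.28, adjusted p = 0.0305). F11r, the adhesion molecule JAM-A, was at 68.2 and 65.9 CPM in block B and 63.4, 64.6 and 58.8 CPM in block A on P3, against 64.8 CPM in block B and 100.4, 79.1 and 101 CPM in block A on P0 (-0.43 ± 0.11, adjusted p = 0.0172). For both, the P0 value in block B was within the P3 range and the 3 in block A were above it, save that the Cldn4 value of P3 replicate 1 came close to them. Cldn3 was at 3.22 and 2.38 CPM in block B and 3.83, 2.32 and 3.69 CPM in block A on P3, against 1.09 CPM in block B and 1.12, 0.903 and 1.54 CPM in block A on P0, with no overlap and in either block (1.39 ± 0.29, adjusted p = 0.00657). Cldn8 was at 4.73 and 4.29 CPM in block B and 7.15, 1.90 and 2.19 CPM in block A on P3, against 0.983 CPM in block B and 2.22, 0.715 and 1.57 CPM in block A on P0, and P0 replicate 1 lay above 2 of the 5 P3 values (1.55 ± 0.39, adjusted p = 0.0165). Cldn1, the claudin without which the epidermal barrier fails, was at 193 and 156 CPM in block B and 109, 90.7 and 67.8 CPM in block A on P3, against 106 CPM in block B and 185, 172 and 203 CPM in block A on P0. The scaffold Tjp1 (ZO-1) was at 129.6 and 111 CPM in block B and 137, 131 and 112 CPM in block A on P3, against 114 CPM in block B and 134, 147 and 144 CPM in block A on P0. Neither passed, at -0.45 ± 0.32 and -0.14 ± 0.10, and the P3 and P0 values of each overlapped.

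Cldn4 and Cldn3 are next to each other on chromosome 5 and changed in opposite directions in the fit to all libraries and in block A, while in block B both were higher on P3 (0.16 for Cldn4). Their promoter windows, 250 bases before to 50 bases after the RefSeq start in the GRCm38.p6 table, are shown because of that contrast, with Gjb6, the member that fell most. Capitals mark the E-box CACCTG or its reverse complement CAGGTG, the letters that the repressors Snai and Zeb bind in epithelial genes.
Cldn4: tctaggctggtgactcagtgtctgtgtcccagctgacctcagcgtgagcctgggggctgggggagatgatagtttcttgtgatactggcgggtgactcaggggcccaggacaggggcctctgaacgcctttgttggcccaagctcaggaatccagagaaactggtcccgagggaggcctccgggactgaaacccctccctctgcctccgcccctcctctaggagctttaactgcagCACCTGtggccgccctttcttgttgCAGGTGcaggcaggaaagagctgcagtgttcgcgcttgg
Cldn3: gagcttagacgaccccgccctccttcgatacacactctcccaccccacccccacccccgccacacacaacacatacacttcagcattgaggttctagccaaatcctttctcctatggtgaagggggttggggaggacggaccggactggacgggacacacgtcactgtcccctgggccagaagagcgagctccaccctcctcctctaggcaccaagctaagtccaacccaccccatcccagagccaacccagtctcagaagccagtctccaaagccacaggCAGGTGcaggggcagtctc
Gjb6: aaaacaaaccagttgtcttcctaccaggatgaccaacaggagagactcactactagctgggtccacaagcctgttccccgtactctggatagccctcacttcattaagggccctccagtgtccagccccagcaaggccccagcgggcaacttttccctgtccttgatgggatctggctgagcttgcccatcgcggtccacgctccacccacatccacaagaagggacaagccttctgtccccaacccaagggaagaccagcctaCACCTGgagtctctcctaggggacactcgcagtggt
The windows are chr5:134946885-134947184 on the minus strand for Cldn4, chr5:134985964-134986263 on the plus strand for Cldn3 and chr14:57133562-57133861 on the minus strand for Gjb6. The E-box occurs 2 times in the Cldn4 window and 1 time in each of the other 2, so it is present in the window of each. Of the 36 genes, 17 had a window in the table, 23 windows in all. The E-box, searched on both strands, was in 12 of the 23 (52.2%) and in 20.2% of all 32851 windows, the Grhl site AACCGGTT in 0 of the 23 and 0.146% of all windows, the AP-1 site TGANTCA in 3 of the 23 (13.04%) and 7.81%, and the GC box GGGCGG in 12 of the 23 (52.2%) and 35.7%. Windows of 1 gene overlap, and these matches describe letters only.

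Among the gap junction genes only Gjb6 passed. Gjb6, the connexin 30 of differentiating keratinocytes, was at 26.6 and 26.2 CPM in block B and 15.8, 21.1 and 19.7 CPM in block A on P3, against 34.5 CPM in block B and 92.9, 70.0 and 62.6 CPM in block A on P0. No values overlapped, pooled or within a block (log2 fold change -1.57 ± 0.37, adjusted p = 0.0156). Gja1, the most abundant of the 3 connexins, was at 652 and 693 CPM in block B and 609, 444 and 407 CPM in block A on P3, against 389 CPM in block B and 461, 434 and 458 CPM in block A on P0. Gjb5, an epidermal connexin, was at 65.2 and 67.6 CPM in block B and 35.2, 34.8 and 27.4 CPM in block A on P3, against 26.6 CPM in block B and 36.2, 26.9 and 36.8 CPM in block A on P0. Neither passed, at 0.35 ± 0.19 and 0.54 ± 0.33, and both overlapped between the days. The log2 ratio of Gjb6 to Gja1, computed within each library from CPM + 0.5, was -4.64 ± 0.36 on P3 and -2.82 ± 0.49 on P0 (SD, n = 5 and 4; exact two-sided permutation test, p = 0.0159, the smallest these sizes allow, adjusted over 5 ratios to 0.0397). The difference was -2.05 within block A and -1.17 within block B.

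Within the blocks the day difference went opposite ways for most of the genes. In block A (3 P3 against 3 P0 WT libraries) the median log2 fold change was -0.52 and 26 genes passed, 2 higher and 24 lower, against 30% of all genes tested there (15.4% higher, 14.6% lower). In block B (2 P3 against P0 replicate 4) the median was 0.33, and 19 passed, 18 higher and 1 lower, against 17.1% of all genes (10.4% higher, 6.72% lower), in a fit with 1 residual degree of freedom. Of the 36, 24 were lower on P3 in block A and higher in block B. Lower in both blocks were Dsg2, Pkp4, Evpl, Cdh3, Ctnnd1 and Gjb6, and higher in both were Dsg4, Pkp2, Cldn3, Cldn8, Gja1 and Gjb5. In a fit with a block term for each day, chosen after seeing the data, 27 passed, 3 higher and 24 lower (27.9% of all genes). Without P0 WT replicate 4 the whole-set fit called 17, 3 higher and 14 lower, against 19.4% of all genes. It called 6 without P0 WT replicate 1 (8.32% of all genes), 6 without replicate 2 (9.12%), 5 without replicate 3 (7.49%) and 9 without P3 WT replicate 2 (11.4%). Dsg3, Pkp3 and Cldn3 kept their call whichever of the 14 libraries was left out. Treating pups of 1 litter on 1 day as a block called 9, against 13.9% of all genes, and a fixed term for litter number, which leaves few degrees of freedom, called 0, against 0.0139%.

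**Figure D2:**
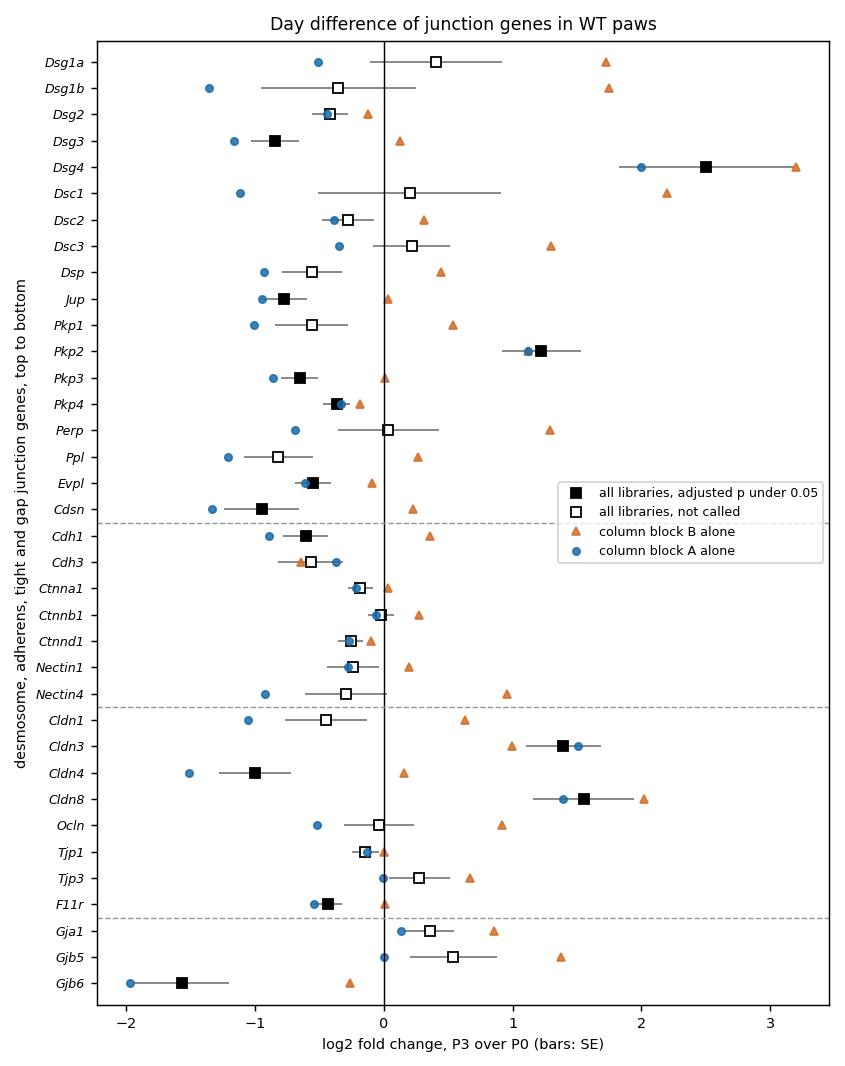
Log2 fold change of each of the 36 genes, P3 over P0, in WT paws (x axis), with genes down the page by junction type; squares are the fit to all libraries with its SE (filled, adjusted p under 0.05; open, not called), triangles block B alone and circles block A alone. Circles lie left of 0 and triangles right of 0 for 24 genes, while Cldn3, Cldn8, Pkp2 and Dsg4 are right of 0 and Gjb6 and Pkp4 left of 0 in both.

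The block difference itself was tested within each day. On P3, 17 junction genes were higher and 2 lower in block B than in block A, against 26.7% of all genes tested (13.1% higher, 13.6% lower), with a median of 0.49 against 0.01. Dsc1, the desmocollin of the upper layers, was at 735 and 808 CPM in block B and 73.7 CPM in block A among P3 Krt9 null paws, and at 392 and 309 CPM in block B and 113, 114 and 57.2 CPM in block A among P3 WT paws (log2 difference 2.40 ± 0.34, adjusted p = 0.0016). Perp was at 2604 and 3022 CPM in block B and 815 CPM in block A in null paws, and at 1982 and 1949 CPM in block B and 898, 932 and 740.3 CPM in block A in WT paws (1.40 ± 0.13, adjusted p = 9.92e-06). In both genes every P3 library of block B was above every one of block A, whatever its genotype. Dsg1b, at 1.85, Dsg1a, at 1.78, Gjb5, at 1.20, Cldn1, at 1.06, Dsc3, at 1.04, and Nectin4, a nectin of adherens junctions, at 1.01, were also higher. Cdh3 (P-cadherin, of basal cells and hair matrix) went the other way, at 33.9 and 31.1 CPM in block B and 60.1 CPM in block A in null paws and at 30.8 and 29.7 CPM in block B and 57.4, 55.0 and 51.6 CPM in block A in WT paws (-0.88 ± 0.08, adjusted p = 7.15e-06). Nectin1 was lower by -0.30, and Ctnnb1, at 0.04, and Tjp1, at -0.08, did not pass.

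By type, 10 of 18 desmosomal, 4 of 7 adherens, 3 of 8 tight and 2 of 3 gap junction genes passed on P3. Groups of 4 libraries did not overlap for 18 higher genes and 1 lower, against 15% and 15.3% of all genes. On P0, 5 genes passed, all lower in block B (Dsp -0.75, Jup -0.86, Evpl -0.58, Cdh3 -0.45 and Nectin1 -0.87), against 3.74% of all genes. With all libraries, Cdh3 and Nectin1 were thus called lower in block B on both days. On P0 28 of 36 had both block B libraries below all 4 of block A (18.9% of all genes). The P0 fit was also run, after the data had been seen, with P0 WT replicate 4 left out, so that the block difference rests on the 2 Krt9 null libraries. In that fit the 5 genes had -0.61 (Dsp), -0.69 (Jup), -0.63 (Evpl), -0.27 (Cdh3, against -0.45 with all libraries) and -0.96 (Nectin1). Only sizes are given for it, since 1 block B library is left on P0. The 5 calls are thus not shown to hold without replicate 4. The median of the 36 was -0.12, against -0.02 over all genes, and 24 were negative. The remaining block B library was below all 4 of block A for 28 of the 36 (28.6% of all genes). It is a female Krt9 null library and block A held both genotypes and sexes, so this raw count mixes genotype and sex with block. Some marker lists of other layers and tissues also differed with the block on P3. The summed level of 6 suprabasal keratinocyte genes on P3 was 38296 to 40390 CPM in block B and 13969 CPM in block A for Krt9 null paws, and 20610 to 22964 CPM in block B and 12655 to 16784 CPM in block A for WT paws. That of 6 fibroblast genes was 25339 to 32996 CPM in block B and 65380 CPM in block A for null paws, and 34553 to 47782 CPM in block B and 65224 to 79862 CPM in block A for WT paws. The fibroblast sum was carried by collagen I, as Col1a1 (-1.46) and Col1a2 (-0.998) were lower in block B, Dcn (0.36) and Lum (0.50) were higher, and Col3a1 and Pdgfra did not pass. No gene of either list was at 0 in any group. On P0 the suprabasal sum went the other way, at 10126 CPM in block B and 17866 CPM in block A for null paws. For P0 WT paws it was 14015 CPM in block B (replicate 4) and 25483 to 31491 CPM in block A. The fibroblast sum on P0 was again lower in block B in both genotypes. The sum of 7 basal keratinocyte genes spanned 4637 to 7101 CPM over the P3 libraries with the blocks overlapping. Of the 7, 2 were called lower and 0 higher in block B on P3, with a median of -0.16, against 13.6% of all genes lower. The part of these marker lists in the junction differences was not tested.

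**Figure D3:**
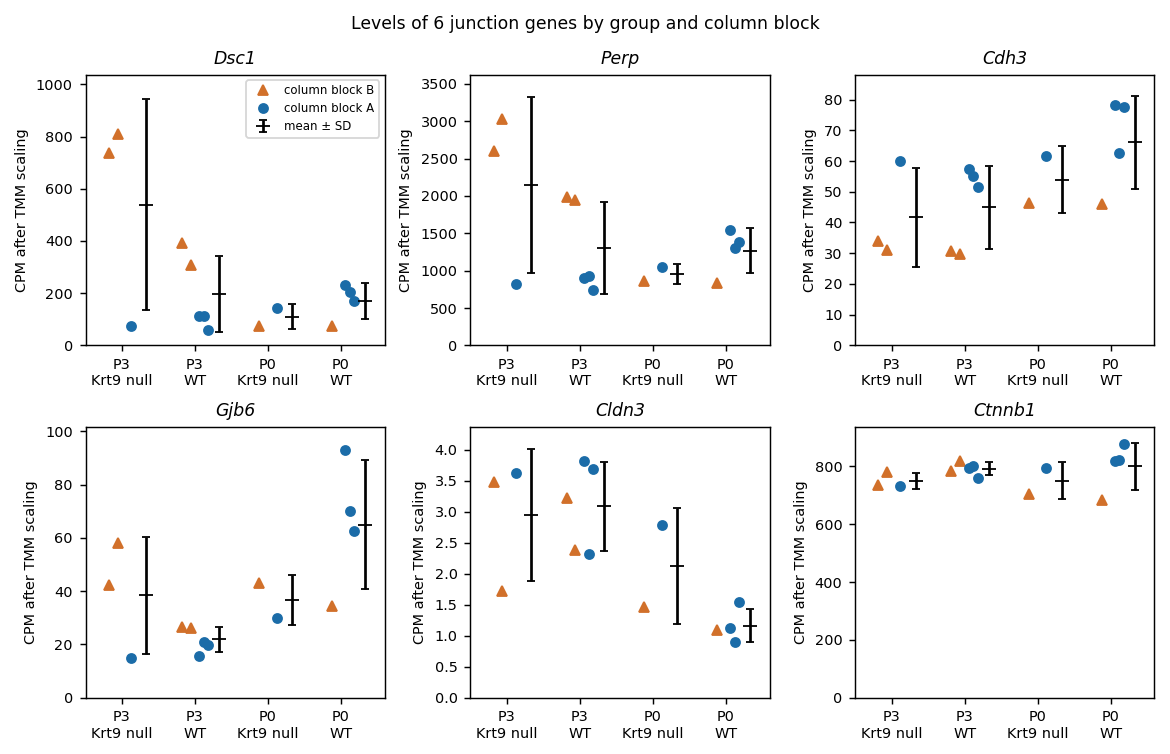
CPM after TMM scaling (y axes, from 0) of Dsc1, Perp, Cdh3, Gjb6, Cldn3 and Ctnnb1 in each library of the 4 groups (x axes); triangles are block B, circles block A, and the black bar at the right of each group its mean and SD. On P3, Dsc1 and Perp are high and Cdh3 low in every block B library, Gjb6 and Cldn3 separate P3 WT from P0 WT paws, and Ctnnb1 stays between 685 and 877 CPM.

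The day comparison in Krt9 null paws rests on 3 P3 and 2 P0 libraries. None of the 36 genes passed in edgeR, where 0.768% of all genes did (0.338% higher, 0.43% lower). Unadjusted p-values under 0.05 numbered 15 (15.9% of all genes), and DESeq2 called 6 of the genes, all higher on P3, against 5.04% of all genes. The median log2 fold change was 0.67, against -0.01 over all genes, and it was 0.08 within block A (1 against 1) and 0.76 within block B (2 against 1). Block A called 0 of the 36, against 0.0277% of all genes, and block B 23, against 22.6% (13.2% higher, 9.43% lower). The DESeq2 calls were Evpl, Tjp3, Gjb5, Nectin4, Dsp and Dsg4. Tjp3 (ZO-3), a tight junction scaffold, was at 32.9 and 27.9 CPM in block B and 14.02 CPM in block A on P3, against 8.94 CPM in block B and 12.9 CPM in block A on P0 (edgeR log2 fold change 1.25 ± 0.34, adjusted p = 0.0954). Gjb5 was at 87.3 and 96.2 CPM in block B and 32.1 CPM in block A on P3, against 24.8 CPM in block B and 27.9 CPM in block A on P0 (1.47 ± 0.47, adjusted p = 0.163). Both lay above P0 in every P3 library, as did Dsg4, Dsc2 and Cldn8 (11.8% of all genes), and Pkp4 lay below (13.8%). Without P3 Krt9 null replicate 2, the only null library of block A on P3, edgeR called 5 (Tjp3, Gjb5, Evpl, Gja1 and Dsp), against 2.97% of all genes. The P3 null libraries left are all of block B and the fit has no block term, so day and block cannot be fully told apart in these calls.

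The genotype comparison on P3 asked whether junction genes differed between Krt9 null and WT paws. None of the 36 passed in edgeR, where 0.00463% of all genes did, and DESeq2 called 1, against 0.12% of all genes. There were 13 unadjusted p-values under 0.05 (6.67% of all genes). The median log2 fold change was 0.52 (desmosome 0.67, adherens 0.11, tight 0.36, gap 0.68), against -0.01 over all genes, and 32 of the 36 values were positive. It was 0.21 within block A, which held 1 null library, and 0.37 within block B, and 25 genes were positive in both. Block A called 0, against 0.00461% of all genes. Block B called 24, 23 higher and 1 lower, against 8.77% of all genes (5.51% higher, 3.26% lower), again with 1 residual degree of freedom. The epithelial genes outside the set had a median of 0.51, the suprabasal list 0.91 and the cornified list 0.89, none of their members called. With the epithelial mean as a covariate the junction median was -0.08. That mean comes from the same libraries and leaned the same way, and the part of these lists was not tested.

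Evpl was the member whose P3 groups did not overlap, which 1.3% of all genes did on the higher side. It was at 280.2 and 247 CPM in block B and 189 CPM in block A in Krt9 null paws, against 173 and 131 CPM in block B and 155, 184 and 144 CPM in block A in WT paws. The means were 239 ± 46.2 and 157 ± 21.5 CPM (SD, n = 3 and 5), and the log2 fold change was 0.74 ± 0.15 with an adjusted p of 0.423 in edgeR and 0.0108 in DESeq2. Over the alternatives run, the adjusted p of Evpl lay between 1.81e-12, within block B, and 1, within block A. With a block term for each day, Evpl (0.67 ± 0.09, adjusted p = 0.0115), Dsp (0.51 ± 0.09, adjusted p = 0.0426) and Jup (0.50 ± 0.09, adjusted p = 0.0379) passed, against 0.18% of all genes. Dsp, the plakin that binds keratin filaments, was at 2171 and 1660.5 CPM in block B and 876 CPM in block A in null paws, against 1399 and 1032 CPM in block B and 997, 899.8 and 683 CPM in block A in WT paws. Jup was at 739 and 569.9 CPM in block B and 440.4 CPM in block A in null paws, against 498 and 354 CPM in block B and 435, 463 and 364 CPM in block A in WT paws. Within block B both null values were above both WT values for the 3 genes, which 19.4% of all genes were, and in block A the null library lay within the WT range for Dsp and Jup.

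Other desmosomal genes had larger but more variable differences. Dsc1 averaged 539 ± 405 CPM in P3 Krt9 null and 197 ± 145 CPM in P3 WT paws (log2 fold change 1.54 ± 0.76, adjusted p = 0.773), and Dsg1b averaged 82.3 ± 56.3 and 31.7 ± 17.6 CPM (1.46 ± 0.64, adjusted p = 0.745). In each, the block A null library was the lowest of the 3, Dsg1b being at 109 and 119.8 CPM in block B and 17.5 CPM in block A in null paws, against 51.4 and 49.9 CPM in block B and 20.1, 23.4 and 13.8 CPM in block A in WT paws. Cdsn was at 585 and 399 CPM in block B and 163 CPM in block A in null paws, against 286 and 158 CPM in block B and 167, 194 and 133 CPM in block A in WT paws (1.16 ± 0.32, adjusted p = 0.694). Without P3 Krt9 null replicate 2, that block A library, edgeR called Cdsn, Tjp3, Ppl and Evpl, at 1.45, 1.20, 1.18 and 0.81, against 0.921% of all genes. The null libraries left are all of block B and the fit has no block term, so genotype and block cannot be fully told apart in these calls. The block B minus block A differences on P3 were 0.77 (Cdsn), 0.80 (Tjp3), 0.80 (Ppl) and 0.09 (Evpl). At the other end of the genotype differences with all libraries, Pkp2 had -0.52. Ctnnb1 (749 ± 26.3 CPM in null, 792 ± 22.6 CPM in WT paws), Cdh3, Tjp1 and Pkp4 lay between -0.06 and 0.01.

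**Figure D4:**
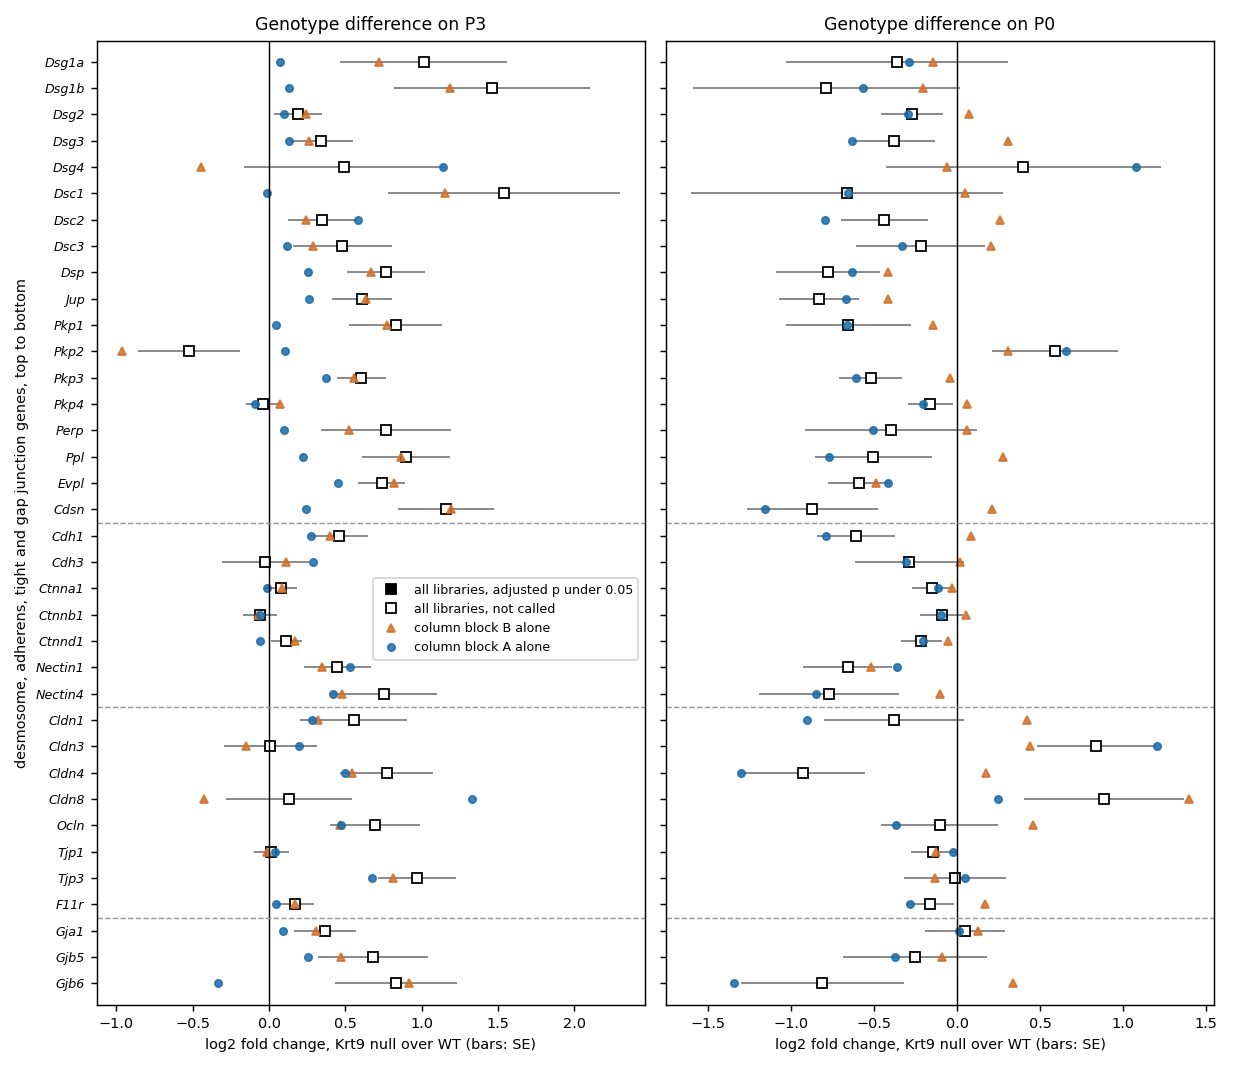
Log2 fold change of each of the 36 genes, Krt9 null over WT (x axes), on P3 (left) and P0 (right); squares are the fit to all libraries with its SE, all open since none passed, triangles block B alone and circles block A alone. Most squares lie right of 0 on P3 and left of 0 on P0, and the null groups hold 3 and 2 libraries.

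On P0 the differences leaned the other way. None of the 36 passed in edgeR (0.00463% of all genes did), and DESeq2 called 0. There were 9 unadjusted p-values under 0.05 (5.96% of all genes), with a median of -0.37 against 0.00 over all genes and 31 of 36 values negative. The medians of the suprabasal, cornified and epithelial lists were -0.64, -0.36 and -0.16, with no member called, and their part was not tested. Jup was at 264 CPM in block B and 553 CPM in block A in P0 Krt9 null paws, against 356 CPM in block B and 902, 734 and 841 CPM in block A in P0 WT paws (-0.83 ± 0.24, adjusted p = 0.831). Dsp was at 573 CPM in block B and 1155 CPM in block A in null paws, against 771 CPM in block B and 1748, 1527 and 1706 CPM in block A in WT paws (-0.78 ± 0.31, adjusted p = 0.831). In each block the null value was the lower one for both. Within block A, where 1 null library stood against 3 WT, 11 genes passed, all lower, against 2.67% of all genes (1.24% higher, 1.43% lower), and the median was -0.37. The spread in that fit comes from the other groups, so the calls cannot be told apart from that 1 pup. Within block B (1 against 1) the median was 0.06. Pkp2, at 2.84 and 2.57 CPM in null against 1.501 to 2.10 CPM in WT paws, was the member without overlap, on the higher side (6.47% of all genes), and it did not pass (0.59 ± 0.38).

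The P3 and P0 genotype differences were then set against each other in the interaction. None of the 36 passed in edgeR (0% of all genes did), where unadjusted p-values under 0.05 numbered 16 (7.6% of all genes), and 33 of 36 values were positive, with a median of 0.93 against -0.02 over all genes. The suprabasal, cornified and epithelial lists had interaction medians of 1.72, 1.41 and 0.58, with no member called, and their part was not tested. DESeq2 called 5, against 0.402% of all genes: Evpl (1.33 ± 0.26, adjusted p = 0.000541), Jup (1.44 ± 0.32, adjusted p = 0.00656), Cdsn (2.03 ± 0.48, adjusted p = 0.0132), Pkp3 (1.12 ± 0.27, adjusted p = 0.0132) and Dsp (1.55 ± 0.41, adjusted p = 0.0352). The block term for each day also gave 5 in edgeR, Evpl (1.12), Jup (1.09), Dsp (1.08), Nectin1 (0.90) and Pkp3 (0.87), against 0.204% of all genes. Evpl, Jup, Dsp and Pkp3 were thus called by both. Without P0 WT replicate 4, edgeR called Evpl, Jup and Pkp3, against 0.221% of all genes, and DESeq2, run so after seeing the data, called 12, all higher and the 5 above among them, against 2.83%. The adjusted edgeR p in the fit to all libraries was 0.226 for Evpl and 0.354 for Jup and Pkp3. The genotype difference averaged over both days called none (0.00925% of all genes), with a median of 0.04, 1 unadjusted p under 0.05 and 0 DESeq2 calls.

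Ratios within a library compared members of 1 junction without reference to library scaling. The log2 ratio of Dsg1a plus Dsg1b to Dsg3, upper-layer to basal desmogleins, was 2.71 ± 0.61 in P3 WT and 1.72 ± 0.17 in P0 WT paws (SD, n = 5 and 4; exact two-sided permutation test, p = 0.0159, adjusted over 5 ratios to 0.0397). All 5 P3 values were above all 4 P0 values, and the difference was 0.56 within block A and 1.63 within block B. The ratios of Dsc1 to Dsc3, Evpl to Dsp and Cdh3 to Cdh1 did not pass the same exact test between P3 WT and P0 WT (each adjusted p = 0.984), and their differences had opposite signs in the 2 blocks. Between P3 Krt9 null and P3 WT paws none of the 5 passed the exact test (adjusted p = 0.491 to 0.821). The smallest unadjusted p possible there is 0.0357, so 1 separated ratio alone could not pass after adjustment over 5 ratios. Among all 8 P3 libraries the Cdh3 to Cdh1 ratio ran from -3.02 to -2.66 in block B and from -1.62 to -1.45 in block A, a separation that held in both genotypes.

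**Figure D5:**
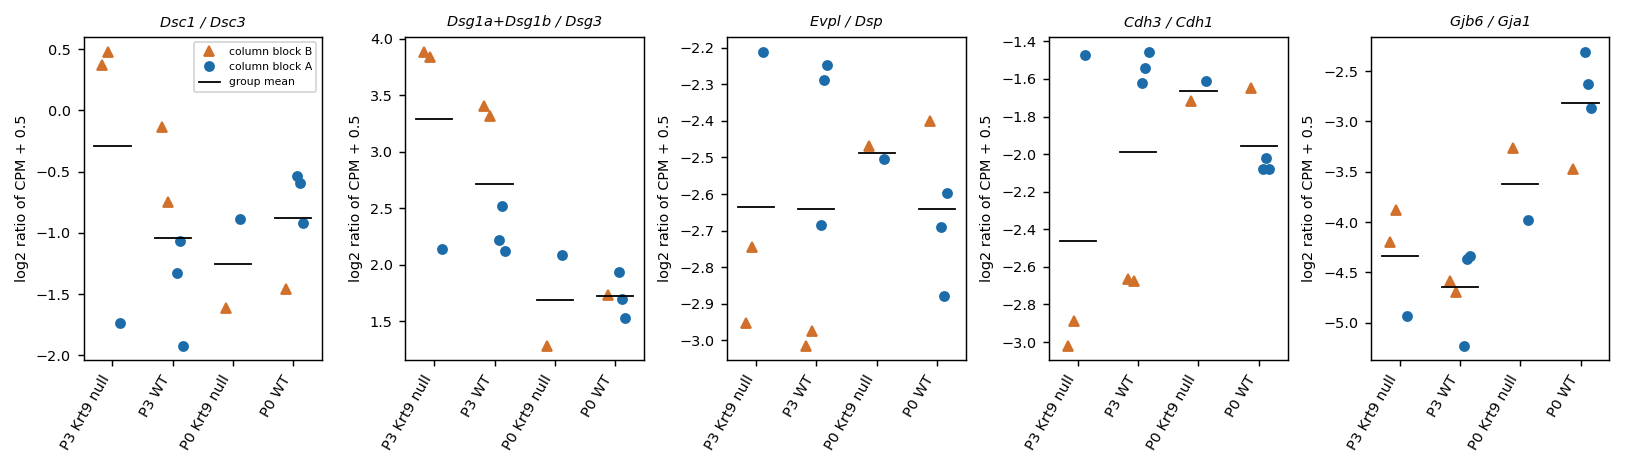
Log2 ratio of CPM + 0.5 of 5 pairs of junction genes (y axes) in each library of the 4 groups (x axes); triangles are block B, circles block A and lines group means. The desmoglein ratio is higher and the connexin ratio lower in all P3 WT than in all P0 WT libraries, and the Cdh3 to Cdh1 ratio on P3 falls into 2 sets that follow the block.

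Beyond the set, 60 other junction genes were listed by type and 54 passed the filter. In the WT day comparison 7 of the 54 passed, all lower on P3: 0 of 2 desmosomal, 1 of 14 adherens, 3 of 24 tight and 3 of 14 gap junction genes. Over all genes 16.6% passed (8.49% higher, 8.07% lower). Gjb2 (connexin 26), which pairs with Gjb6 in epidermal channels, averaged 81.9 ± 25.1 CPM in P3 WT and 269 ± 116 CPM in P0 WT paws (SD, n = 5 and 4; log2 fold change -1.75 ± 0.26, adjusted p = 0.00151), with -2.06 in block A and -0.43 in block B. Pvr, a nectin-like adhesion molecule, averaged 12.6 ± 2.65 and 26.4 ± 6.18 CPM (-1.07 ± 0.19, adjusted p = 0.00278) and differed by about the same in both blocks, at -0.95 in block A and -0.99 in block B. Gjc1 (connexin 45, of vessels and muscle) had -0.60, Panx1 -0.51, the polarity gene Pard6b -1.05, Cldn2 -1.21 and Cldn9 -0.89, each negative in both blocks. In the genotype comparisons on P3 and P0 and in the interaction, 0 of the 54 passed in edgeR.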

How the data were processed

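RNA from paws of newborn mice was sequenced. Each of the 14 libraries is labelled by day, genotype, litter and sex, and ribosomal RNA was depleted, per the labels' protocols. The authors deposited raw read counts per gene. Per the submitters' processing notes, the tools were STAR (2.7.10a), featureCounts, edgeR and limma on GRCm39; the count settings, strand included, were not found there. Symbols matched 52073 of 56691 IDs, and exon lengths came from GENCODE vM21, an older build. After filterByExpr, 21619 genes were scaled with TMM and tested in edgeR 4.0.16 under R 4.3.3 (robust quasi-likelihood fit of 4 groups and labelled sex, 9 residual degrees of freedom), with Benjamini-Hochberg adjustment over all of them and calls under 0.05. DESeq2 1.42.0, limma 3.58.1 and other settings were alternatives. Scripts were tested on simulated data.

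The members and lists were chosen with earlier results of these data known. Values in every library are given for the 10 members with the smallest adjusted p over the day contrasts, 2 of each type with the highest mean CPM, the members of the 5 ratios and any called in a genotype contrast or interaction; other members with such values were chosen after theirs were seen. Of the other junction genes, up to 3 called per type are named. Per the labels, 1 pair of P3 WT males shares a litter, as does 1 P0 pair of Krt9 null and WT, so p-values treat some litter mates as independent. Residuals of these pairs correlated at -0.21 and -0.15. They were taken after fitting group means, which alone pushes libraries of 1 group towards negative correlation, so they do not measure litter likeness. P3 WT pairs of different litters ran from -0.49 to 0.06. The consensus correlation of litters within a day was 0.55 and rests on these pairs alone.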

Additional observations from a re-analysis of the deposited data

Results flagged for a closer look

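In 82 groups of values examined, 3 had a library far from the others, where chance alone flags about 1 group in 20. Dsg1b was at 15.4 CPM in P0 WT replicate 4, against 47.6 to 51.0 CPM in the other 3 P0 WT libraries. The log2 ratio of Cdh3 to Cdh1 was -1.65 in the same library, against -2.08 to -2.02 in the others. Cldn4 was at 77.3 CPM in P3 WT replicate 1, against 27.4 to 41.4 CPM in the other 4 P3 WT libraries. Replicate 4 is the only P0 WT library of block B, so library and block cannot be told apart there.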

How the results depend on the processing

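Counts of the 36 genes called depended on the libraries and the block, and so did the share of all genes called, given in brackets. For day in WT (14), the count was 9 without the sex term (15.8%), 26 in block A (30%), 9 with the litter block within a day (13.9%), 0 with litter number as a fixed block (0.0139%), 27 with a block term for each day (27.9%) and 23 with a block term without P0 WT replicate 4 (32%). For day in Krt9 null (0) it was 17 with no filter (4.6%), 6 in DESeq2 (5.04%), 8 in DESeq2 without P0 WT replicate 4 (5.87%), 3 with a block term (4.95%), 23 in block B (22.6%) and 9 with a block term without replicate 4 (8.5%). For genotype on P3 (0) it was 18 with no filter (1.71%), 1 in DESeq2 (0.12%), 4 in DESeq2 without replicate 4 (0.287%), 24 in block B (8.77%), 2 with a block term without replicate 4 (0.259%) and 3 with a block term for each day (0.18%). For genotype on P0 (0) it was 7 with no filter (0.494%), 6 in DESeq2 without replicate 4 (2.17%), 11 in block A (2.67%), 5 in block B (1.44%) and 12 with a block term without replicate 4 (5.89%). For the interaction (0) it was 18 with no filter (1.68%), 5 in DESeq2 (0.402%), 12 in DESeq2 without replicate 4 (2.83%), 1 with a block term (0.0324%), 4 in block A (0.189%), 15 in block B (2.64%), 17 with a block term without replicate 4 (7.02%) and 5 with a block term for each day (0.204%). The averaged genotype (0) gave 1 with no filter (0.551%) and 16 in block B (5.93%). Leaving out 1 library gave 5 to 17 for day in WT (7.49% to 20%), 0 to 5 for day in Krt9 null (0% to 2.97%), 0 to 4 for genotype on P3 (0.00435% to 0.921%) and 0 to 3 for the interaction (0% to 0.221%), and 0 for the other 2. The litter block, random or fixed, changed no other count.

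In block B alone, log2 day differences in WT turned positive for F11r (0.01), Pkp3 (0.01), Jup (0.03), Dsg3 (0.13), Cldn4 (0.16), Cdsn (0.23) and Cdh1 (0.35). Leaving out 1 library kept the direction of all 14 called genes. With the litter 2 males averaged, the desmoglein ratio difference was 1.08 and the connexin one -1.79, both no longer past the threshold since fewer libraries raise the smallest p. Leaving out 1 library gave 0.82 to 1.14 and -2.05 to -1.66, none past it. In WT, the day differences within blocks A and B were -0.76 and 1.02 for Dsc1 to Dsc3, 0.56 and 1.63 for the desmogleins, 0.32 and -0.60 for Evpl to Dsp, 0.52 and -1.02 for Cdh3 to Cdh1, and -1.17 in block B for the connexins. Genotype differences on P3 in block A were -0.29 for Dsc1 to Dsc3, -0.15 for the desmogleins and -0.29 for the connexins. The causes were not tested. Block B alone leaves 1 residual degree of freedom.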
